A study of Mus musculus with 4 samples.

Results

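The 4 genes described here are *Nupr1*, which encodes a small stress-induced protein of the nucleus, and *Gdf15*, *Fgf21* and *Stc2*, which encode secreted stress factors. They were found by their symbols among the 32286 features of the count files, and all 4 symbols were present once. *Nupr1* was chosen by its fitted rise between the library labels in nuclei like oligodendrocyte precursor cells (OPCs), the largest of any gene there, and the other genes because they are hormones or secreted factors of the stress response. The values of OPC-like nuclei therefore chose the genes and are given as a description, with no test.

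These genes share a way of being switched on. Under stress of the endoplasmic reticulum (ER), a lack of amino acids or other insults, kinases phosphorylate the initiation factor eIF2alpha, general translation slows, and the transcription factor ATF4 is made. ATF4 and its partners, CHOP (encoded by *Ddit3*) among them, bind amino acid response elements near genes for amino acid synthesis and transport and near several secreted factors, a program called the integrated stress response. NUPR1 is a chromatin-associated protein that was first described in the injured pancreas. GDF15 is a hormone that acts on hindbrain neurons through the receptor GFRAL and its co-receptor RET, FGF21 is a hormone that needs the co-receptor beta-klotho (*Klb*) beside an FGF receptor, and STC2 is a glycoprotein that inhibits the protease PAPP-A (*Pappa*), an activator of insulin-like growth factors.

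The RNA of single nuclei of the cortex and hippocampus was measured in 4 libraries of mice aged 5 weeks. Of these, 2 were labelled *Sel1L* flox/flox and 2 *Sel1L* Syn-Cre. All 4 mice carried the floxed *Sel1L* allele, whose product SEL1L is the adaptor of the ubiquitin ligase HRD1 in ER-associated degradation. Syn-Cre mice also carried Cre recombinase under the Synapsin I promoter, which is active in postmitotic neurons, and no treatment is named in the labels. Each library was made from FACS-sorted nuclei, and replicates 1 and 2 of a label are separate samples, so that p-values measure the spread between 2 samples per label. The deposited matrices held 7366 to 12599 nuclei and 74082610 to 122870443 UMIs (unique molecular identifiers, each standing for 1 captured RNA molecule) per library. After filters, 6786 to 11104 nuclei remained with medians of 7261.5 to 8409 UMIs. Any pair of libraries shared 10 to 34 barcodes, at most 0.462% of the smaller library.

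The labels and the transcripts did not match in every library. Cre UMIs numbered 415 and 0 in the libraries labelled *Sel1L* flox/flox replicates 1 and 2, and 235 and 217 in those labelled *Sel1L* Syn-Cre, so that the library labelled *Sel1L* flox/flox replicate 1 held Cre RNA. *Sel1l* itself stood at 96.9 and 90.2 CPM (UMIs of a gene scaled to the same total in each library) under the first label and at 155 and 128 CPM under the second, higher rather than lower. Counts per gene do not resolve whether the floxed exon is gone. Groups are therefore named by the library label throughout, and calls or fitted changes of the 4 genes and of the lists are also given without replicate 1 of the *Sel1L* flox/flox label. Replicate 1 of each label held *Ddx3y* RNA of the Y chromosome (48.6 and 48.5 CPM) and little *Xist* (0.445 and 2.21 CPM), and replicate 2 of each held *Xist* (1618 and 1475 CPM), so that each label had 1 male and 1 female mouse by these genes.

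Nuclei fell into 20 classes, which were named by marker genes with "-like" added, except the clusters c6 and c13, which stayed unnamed. OPC-like nuclei numbered 512, 422, 284 and 246 in the order *Sel1L* flox/flox replicates 1 and 2 and *Sel1L* Syn-Cre replicates 1 and 2, the order used for every set of 4 values below. Summed OPC markers (*Pdgfra*, *Cspg4* and the other OPC genes of the list) were at 6795, 6998, 7226 and 6364 CPM in that class. Markers of mature oligodendrocytes summed to 3281, 2324, 104 and 202 CPM in the same nuclei, and markers of immature oligodendrocytes to 3372, 3005, 1239 and 1220 CPM. The OPC-like class thus held more oligodendrocyte RNA under the flox/flox label. Values are therefore also given from clusters made without integration, where immature oligodendrocyte-like nuclei stood apart.

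The sequences upstream of *Nupr1* and *Fgf21* are shown because both hold the same amino acid response element, the kind of site that ATF4 binds. They are the 250 bases before the transcript start from RefSeq on GRCm38.p6, at chr7:126625471-126625720 for *Nupr1* and chr7:45615491-45615740 for *Fgf21*, both on the minus strand and written 5′ to 3′, with the element in capitals.
Nupr1: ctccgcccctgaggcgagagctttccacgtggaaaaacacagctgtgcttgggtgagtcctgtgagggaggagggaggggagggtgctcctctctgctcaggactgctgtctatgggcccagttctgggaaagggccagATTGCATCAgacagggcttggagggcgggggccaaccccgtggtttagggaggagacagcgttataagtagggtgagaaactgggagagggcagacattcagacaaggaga
Fgf21: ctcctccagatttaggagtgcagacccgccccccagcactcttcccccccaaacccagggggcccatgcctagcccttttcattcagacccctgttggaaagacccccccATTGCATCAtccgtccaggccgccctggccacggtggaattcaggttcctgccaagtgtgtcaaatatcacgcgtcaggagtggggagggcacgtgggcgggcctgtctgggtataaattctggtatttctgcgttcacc

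The element (TGATGCAAT, or ATTGCATCA on the other strand) begins 111 bases upstream of the *Nupr1* start and 140 bases upstream of the *Fgf21* start. Searched on both strands of 300-base windows (250 bases before to 50 after each start), it was found in 63 of 32851 windows, or 0.192%. The looser form TGATGNAAN, which includes the exact one, was in 3.95% of the windows. The windows of *Gdf15* and *Stc2* did not hold the exact element, and no searched motif was found in the *Stc2* window. A match of letters is a description and not evidence of binding. In the GENCODE annotation (GRCm38), *Nupr1* lies at chr7:126623249-126630861, *Gdf15* at chr8:70629393-70632456, *Fgf21* at chr7:45613886-45615490 and *Stc2* at chr11:31357307-31370074, all on the minus strand. None of the 4 genes overlaps another annotated gene.

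*Nupr1* was close to absent from OPC-like nuclei under one label and among the clearer signals of the class under the other. Its UMIs in OPC-like nuclei numbered 1, 0, 135 and 101, that is 0.415, 0, 118 and 98.3 CPM. Means were 0.208 ± 0.294 CPM (SD, n = 2) under the *Sel1L* flox/flox label and 108 ± 13.6 CPM (SD, n = 2) under the *Sel1L* Syn-Cre label. The ratio of summed counts was 450 (95% exact interval 79.9 to 17833, counting error only). The gene was chosen by this rise, so neither the gap between the labels nor the interval is a test of it. UMIs were found in 0.195%, 0%, 33.5% (95% Wilson interval 28.2% to 39.1%) and 29.7% (24.3% to 35.7%) of these nuclei, and 0 of 422 nuclei allows a share of up to 0.711%. In the libraries labelled Syn-Cre, 113 OPC-like nuclei held 1 *Nupr1* UMI, 44 held 2, 9 held 3 and 2 held 4, so that the signal was spread over many nuclei.

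In DG-like neurons, where the gene was near its floor in every library, 0.117%, 0.191%, 0.204% and 0% of nuclei held a *Nupr1* UMI, at median depths of 7142 to 7557 UMIs against 3760 to 4121 UMIs in OPC-like nuclei. The shares of OPC-like nuclei under the Syn-Cre label lay above those of DG-like neurons, although the OPC-like nuclei were shallower. DG-like neurons are among the classes with the least *Nupr1*. *Pvalb*-like, endothelial-like and cluster c6 nuclei held more under the flox/flox label, as given below. The comparison is a description, as the OPC-like values chose the gene. With every nucleus thinned to 2000 UMIs, the shares of OPC-like nuclei were 0% and 0% against 21.7% and 16.5%. Without integration, OPC-like nuclei numbered 397, 358, 278 and 243 and held 1, 0, 133 and 101 *Nupr1* UMIs, and immature oligodendrocyte-like nuclei numbered 121, 65, 9 and 3 and held 0, 0, 1 and 0. Cre UMIs in OPC-like nuclei were 32, 0, 20 and 12, so that the library labelled flox/flox replicate 1 held Cre RNA in this class and 1 *Nupr1* UMI. *Sel1l* in these nuclei was at 122, 93.8, 423 and 184 CPM.

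**Figure D1:**
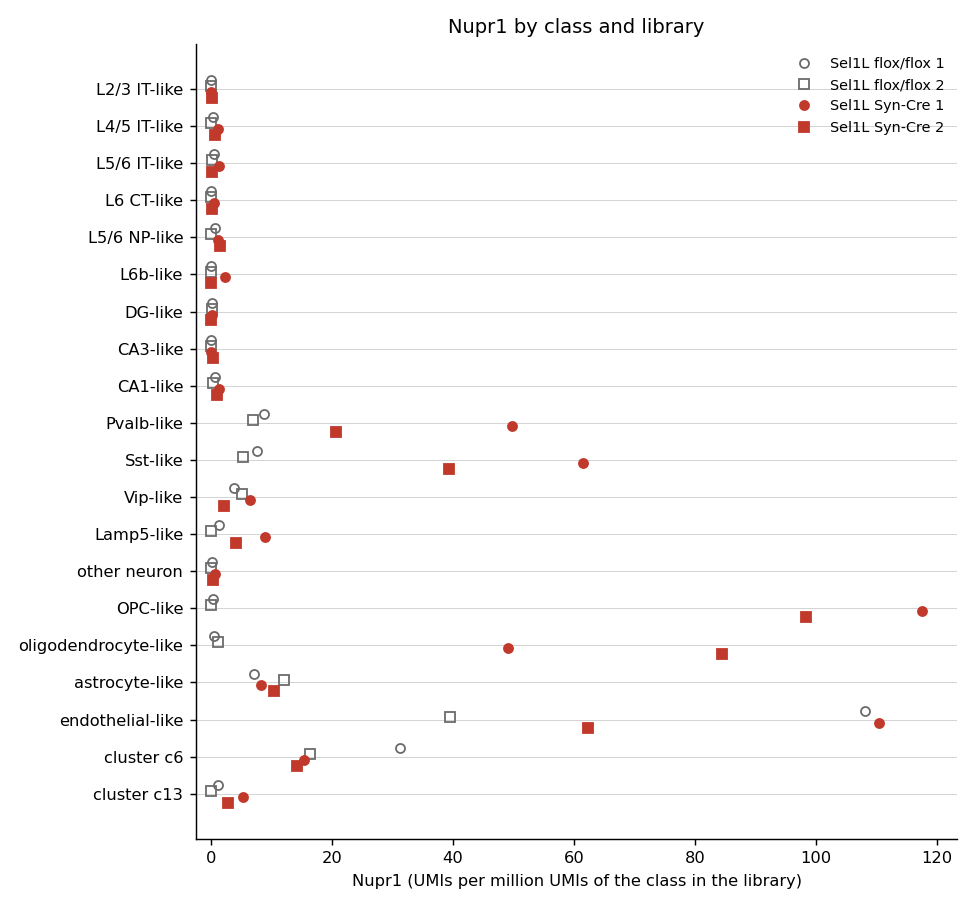
*Nupr1* level (CPM of the class in that library, linear axis) in each of the 20 classes, 1 point per library, open for the *Sel1L* flox/flox label and filled red for *Sel1L* Syn-Cre. OPC-like and oligodendrocyte-like nuclei go from 0 to 1.15 CPM under the *Sel1L* flox/flox label to 49.1 to 118 CPM under the *Sel1L* Syn-Cre label, endothelial-like nuclei are high in all 4 libraries, and most excitatory classes stay low.

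Mature oligodendrocyte-like nuclei, whose genotype contrast did not choose the genes, had the same pattern at a lower level. *Nupr1* UMIs numbered 4, 4, 55 and 87 in 1848, 1173, 358 and 365 nuclei, or 0.589, 1.15, 49.1 and 84.5 CPM. The means were 0.869 ± 0.395 CPM and 66.8 ± 25.1 CPM (SD, n = 2 each). *Nupr1* rose by 6.30 on the log2 scale (SE 0.40, adjusted p = 2.4e-04, edgeR's quasi-likelihood test on summed counts, Benjamini-Hochberg over 11474 genes). In this class 0.854% of genes passed the threshold in either direction. The gene had 8 UMIs under the flox/flox label, so it entered the test only through the libraries in which it was high, and it was not testable with at least 10 counts required in every library.

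Oligodendrocyte-like nuclei with a *Nupr1* UMI made up 0.162%, 0.341%, 12.01% and 16.4% of the class. Thinned to 2000 UMIs, the shares were 0.120%, 0.336%, 8.13% and 10.7%. Without integration, oligodendrocyte-like nuclei numbered 1022, 829, 242 and 280 and held 4, 1, 45 and 86 *Nupr1* UMIs. Of the integrated class, 63.3% of nuclei kept the name there. OPC markers summed to 67.8, 56.3, 53.5 and 59.2 CPM in oligodendrocyte-like nuclei, so that the labels overlapped in this measure of OPC RNA. Cre UMIs were almost missing here, at 2, 0, 0 and 0. Without the library labelled flox/flox replicate 1, the fitted change was 5.74, with the lone sample assumed to vary like the others. There too the gene was carried into the fit by the libraries in which it was high.

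*Sst*-like and *Pvalb*-like inhibitory neurons had a measurable level of *Nupr1* under both labels. In *Sst*-like neurons, which are marked by somatostatin, UMIs numbered 22, 10, 116 and 62, or 7.66, 5.34, 61.5 and 39.4 CPM. The means were 6.50 ± 1.64 CPM and 50.4 ± 15.7 CPM (SD, n = 2 each), a rise of 2.83 on the log2 scale (SE 0.29, adjusted p = 1.1e-06 by edgeR). Across all genes of *Sst*-like neurons 9.11% passed in either direction. In *Pvalb*-like neurons, marked by parvalbumin, UMIs numbered 31, 17, 117 and 52, or 8.75, 7.04, 49.9 and 20.8 CPM. The rise was 2.05 (SE 0.38, adjusted p = 0.0078 by edgeR) where 4.2% of genes passed. The library labelled Syn-Cre replicate 1 was the higher of its label in both classes.

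The shares of *Sst*-like neurons with a *Nupr1* UMI were 7.23%, 3.89%, 41.6% and 28.8%, and those of *Pvalb*-like neurons were 8.93%, 6.79%, 36.9% and 18.7%. At 2000 UMIs per nucleus they fell to 1.61%, 1.67%, 9.25% and 9.15% in *Sst*-like and to 3.10%, 0%, 8.37% and 2.80% in *Pvalb*-like neurons, where the libraries of the labels then overlapped. Without the library labelled flox/flox replicate 1, the rises were 3.19 (adjusted p = 0.0020) in *Sst*-like and 2.26 (adjusted p = 5.6e-04) in *Pvalb*-like neurons by edgeR. Cre UMIs numbered 60, 0, 33 and 20 in *Sst*-like and 106, 0, 68 and 63 in *Pvalb*-like neurons.

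**Figure D2:**
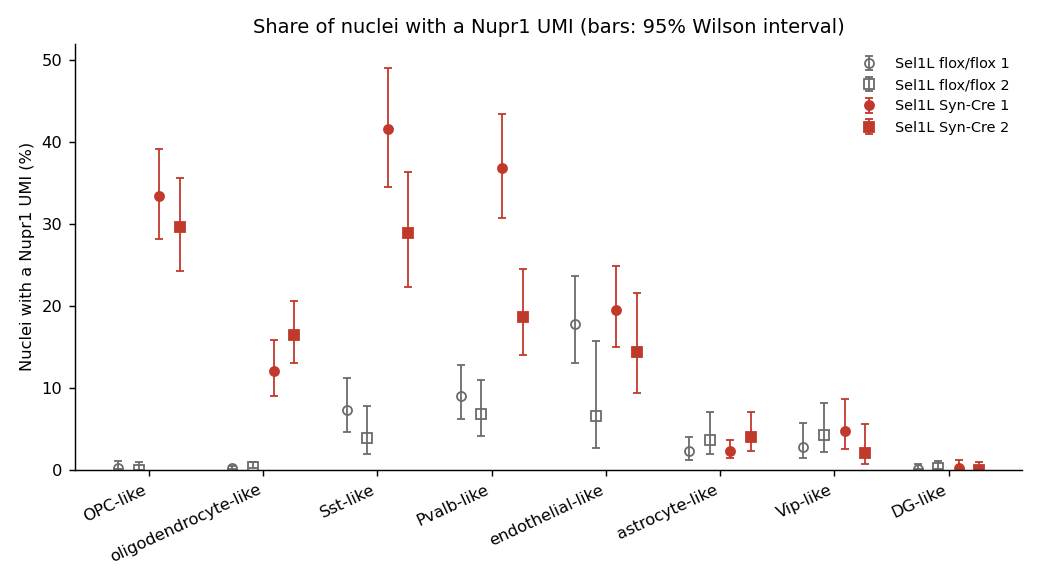
Share of nuclei with a *Nupr1* UMI (percent) in each library, with 95% Wilson intervals, for 8 classes, with open points for the *Sel1L* flox/flox label and filled red points for *Sel1L* Syn-Cre. OPC-like nuclei reach 33.5% and 29.7% under the *Sel1L* Syn-Cre label, against 0.195% and 0% under the *Sel1L* flox/flox label, and DG-like nuclei stay at or below 0.204%.

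The other inhibitory classes stood lower. *Vip*-like neurons held 9, 8, 12 and 3 *Nupr1* UMIs (3.83, 5.21, 6.57 and 2.20 CPM), so that the labels overlapped, and the rise of *Sst*-like neurons exceeded the change in *Vip*-like neurons by 2.79 on the log2 scale (SE 0.60, adjusted p = 0.0093, interaction term in edgeR with the library as a block, where 2.8% of genes passed). That difference did not pass without the library labelled Syn-Cre replicate 1 (3.44, adjusted p = 0.11 by edgeR) or without replicate 2 (2.52, adjusted p = 0.095), and it passed without flox/flox replicate 1 (3.36, adjusted p = 0.0055). For *Pvalb*-like against *Vip*-like neurons the difference was 2.02 (adjusted p = 0.086 by edgeR), and it passed only without the library labelled Syn-Cre replicate 2 (1.98, adjusted p = 0.038). Set against CA1-like neurons, in which *Nupr1* UMIs numbered 5, 2, 5 and 4, the differences of 1.88 in *Sst*-like (adjusted p = 0.26) and 1.11 in *Pvalb*-like neurons (adjusted p = 0.65) did not pass either. In these 3 comparisons 1.59%, 3.75% and 2.21% of genes passed. Against DG-like neurons, a reference chosen after the values were seen, they were 3.19 in *Sst*-like (adjusted p = 0.44) and 2.36 in *Pvalb*-like neurons (adjusted p = 0.63), where 2.63% and 2.33% of genes passed. *Lamp5*-like neurons held 2, 0, 8 and 4 UMIs, too few to test.

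Excitatory neurons held few *Nupr1* UMIs. DG-like neurons held 1, 1, 1 and 0 UMIs, CA3-like neurons 0, 0, 0 and 1, and L4/5 IT-like neurons 3, 0, 7 and 5. Summed over all neuron-like nuclei, the counts were 85, 42, 292 and 145 (0.970, 0.694, 4.95 and 2.37 CPM). The change of 2.07 did not pass the threshold (adjusted p = 0.10 by edgeR, where 0.159% of genes passed). DESeq2 called it (adjusted p = 2.1e-05), as did edgeR with the replicate number as a block (2.03, adjusted p = 2.5e-04). That number goes with the sex of the mice read from *Xist* and *Ddx3y*.

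Vascular and other glial classes held *Nupr1* RNA under both labels, and no change was called there. Endothelial-like nuclei, a class that also held fibroblast and pericyte markers, had 108, 39.6, 110 and 62.4 CPM from 51, 5, 77 and 23 UMIs, a level near that of OPC-like nuclei under the Syn-Cre label. The fitted change there was 0.07 (SE 0.44, adjusted p = 0.99 by edgeR, where 0% of genes passed against 557 of 8247 at an unadjusted p under 0.05 and 3 genes by DESeq2). Astrocyte-like nuclei held 11, 9, 23 and 12 UMIs, with a change of −0.02 (SE 0.47, adjusted p = 0.99) where 1.21% of genes passed. The unnamed cluster c6, led by *Arhgap45*, *Inpp5d* and *Siglech*, held 51, 19, 14 and 10 UMIs and 31.3, 16.3, 15.4 and 14.3 CPM. Its change was −0.76 (SE 0.41, adjusted p = 0.67 by edgeR) where 0.084% of genes passed. Markers of microglia or perivascular macrophages summed to 5898, 6454, 6044 and 5695 CPM in this cluster, which the naming rule left unnamed. The change in oligodendrocyte-like nuclei exceeded that in astrocyte-like nuclei by 6.20 (SE 0.64, adjusted p = 5.1e-04) and that in cluster c6 by 7.10 (SE 0.55, adjusted p = 3.8e-05), both from an interaction term in edgeR chosen after the values were seen, where 0.733% and 0.233% of genes passed. In oligodendrocyte-like nuclei the gene had entered the test only through the Syn-Cre libraries, which limits both differences. Of a library's *Nupr1* UMIs, OPC-like nuclei held 0.490%, 0%, 22.5% and 26.6%, cluster c6 held 25%, 24.1%, 2.33% and 2.63%, and endothelial-like nuclei held 25%, 6.33%, 12.8% and 6.05%. The labels overlapped in the endothelial-like share.

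Ordered by level, the classes under the *Sel1L* Syn-Cre label ran from OPC-like (108 ± 13.6 CPM, mean ± SD, n = 2) through endothelial-like (86.4 ± 34.0), oligodendrocyte-like (66.8 ± 25.1) and *Sst*-like (50.4 ± 15.7) to *Pvalb*-like nuclei (35.3 ± 20.6). Each of these overlapped its neighbour in the order, whereas the OPC-like libraries both lay above the oligodendrocyte-like ones, and the *Pvalb*-like ones above cluster c6 (14.8 ± 0.81). Under the *Sel1L* flox/flox label endothelial-like nuclei (73.8 ± 48.5 CPM) stood above cluster c6 (23.8 ± 10.6), astrocyte-like (9.64 ± 3.41), *Pvalb*-like (7.89 ± 1.21), *Sst*-like (6.50 ± 1.64) and *Vip*-like nuclei (4.52 ± 0.98), with OPC-like nuclei near 0.

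*Gdf15* was sparse, with 27, 22, 54 and 38 UMIs in all nuclei of the 4 libraries. OPC-like nuclei held 0, 0, 24 and 9 of them (0, 0, 20.9 and 8.76 CPM), which is at least 21.0-fold higher under the *Sel1L* Syn-Cre label against a floor of 3 counts over the flox/flox libraries. The UMIs came from 24 and 7 nuclei, and OPC-like nuclei held 44.4% and 23.7% of the *Gdf15* UMIs of their libraries. *Gdf15* had the second largest fitted rise in that class, with a log2 change of 7.57 after 8.38 for *Nupr1*, and both fits depend on the prior count because a library was at 0. *Slc7a11* (6.56), *Trim66* (5.71) and *Eif4ebp1* (5.39), an inhibitor of translation initiation, came next. The largest falls were those of *Top2a* (80, 71, 0 and 0 UMIs) and *Depdc1b*, genes of dividing cells, *Casr*, *Gm35501* and the cohesion gene *Esco2*. Without integration the counts of OPC-like nuclei were the same, 0, 0, 24 and 9.

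Outside OPC-like nuclei *Gdf15* passed the count filter in no single class. *Pvalb*-like neurons held 1, 2, 6 and 6 UMIs, a ratio of 4.91 (95% exact interval 1.33 to 27.1, counting error only). L5/6 IT-like neurons held 4, 3, 0 and 0, and oligodendrocyte-like nuclei 2, 0, 0 and 1, so that in the latter, where *Nupr1* rose, no rise of *Gdf15* was detectable at this depth. Over all neuron-like nuclei the counts were 25, 19, 25 and 24, a change of 0.40 (SE 0.35, adjusted p = 0.70 by edgeR). No *Gdf15* UMI was found in *Vip*-like neurons, L5/6 NP-like neurons or the unnamed cluster c13.

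*Stc2* was mainly a neuronal transcript, and under the flox/flox label its level was highest in *Lamp5*-like neurons (7.58 and 7.95 CPM, against 13.6 and 12.7 CPM under the Syn-Cre label). All nuclei held 114, 57, 185 and 131 UMIs, of which neuron-like nuclei had 104, 57, 173 and 127. *Pvalb*-like neurons had 13, 7, 35 and 21 UMIs, or 3.67, 2.90, 14.9 and 8.38 CPM. Their means were 3.28 ± 0.546 CPM and 11.6 ± 4.62 CPM (SD, n = 2 each). The rise of 1.70 on the log2 scale (SE 0.42) passed the threshold (adjusted p = 0.039 by edgeR, where 4.2% of genes passed). *Sst*-like neurons had 15, 7, 29 and 18 UMIs, or 5.22, 3.74, 15.4 and 11.4 CPM. There *Stc2* rose by 1.45 (SE 0.40, adjusted p = 0.024 by edgeR, where 9.11% of genes passed). In both classes *Stc2* entered the test only through the Syn-Cre libraries, in which it was high, which limits both calls.

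Both rises of *Stc2* stood close to the threshold. DESeq2 gave adjusted p = 0.19 in *Pvalb*-like and 0.28 in *Sst*-like neurons, and without the library labelled flox/flox replicate 1 edgeR gave 0.060 and 0.11, with log2 changes of 1.93 and 1.79. In L4/5 IT-like neurons, excitatory cells of the middle cortical layers, *Stc2* went from 0 and 2 UMIs to 22 and 12, a ratio of 20.6 (95% exact interval 5.28 to 177, counting error only). The fitted change of 4.18 there (SE 0.94) did not pass (adjusted p = 0.064 by edgeR, where 1.42% of genes passed). With the replicate number as a block it did (4.23, adjusted p = 0.0067 by edgeR), in a fit where 684 of 14675 genes passed, against 208 without the block. Its libraries of high counts alone took it through the filter. DG-like neurons, the granule cells of the hippocampus, held 20, 16, 19 and 14, a change of 0.46 (SE 0.40, adjusted p = 0.64) where 3.99% of genes passed. *Lamp5*-like (11, 7, 12 and 12 UMIs) and CA3-like neurons (16, 5, 6 and 10 UMIs) did not pass either, with adjusted p of 0.62 and 0.94 where 0.829% and 0.0411% of genes passed. Neurons of no named subtype (11, 4, 29 and 13 UMIs) had a change of 1.78 (adjusted p = 0.51 by edgeR, where 0 of 16751 genes passed). CA1-like neurons held 2, 0, 0 and 1 *Stc2* UMIs. Against them the *Stc2* change differed by 2.00 (SE 1.90) in *Pvalb*-like, 1.73 (SE 1.83) in *Sst*-like and 0.89 (SE 1.79) in DG-like neurons. The adjusted p were 0.76, 0.74 and 0.91 by the interaction term in edgeR, which called 2.18% of genes for DG-like neurons. With so few UMIs in the reference, these tests could not decide whether the changes differed. In OPC-like nuclei *Stc2* had 0, 0, 9 and 4 UMIs, at least 8.26-fold higher against the floor of 3 counts, and in oligodendrocyte-like nuclei 1, 0, 0 and 0.

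**Figure D3:**
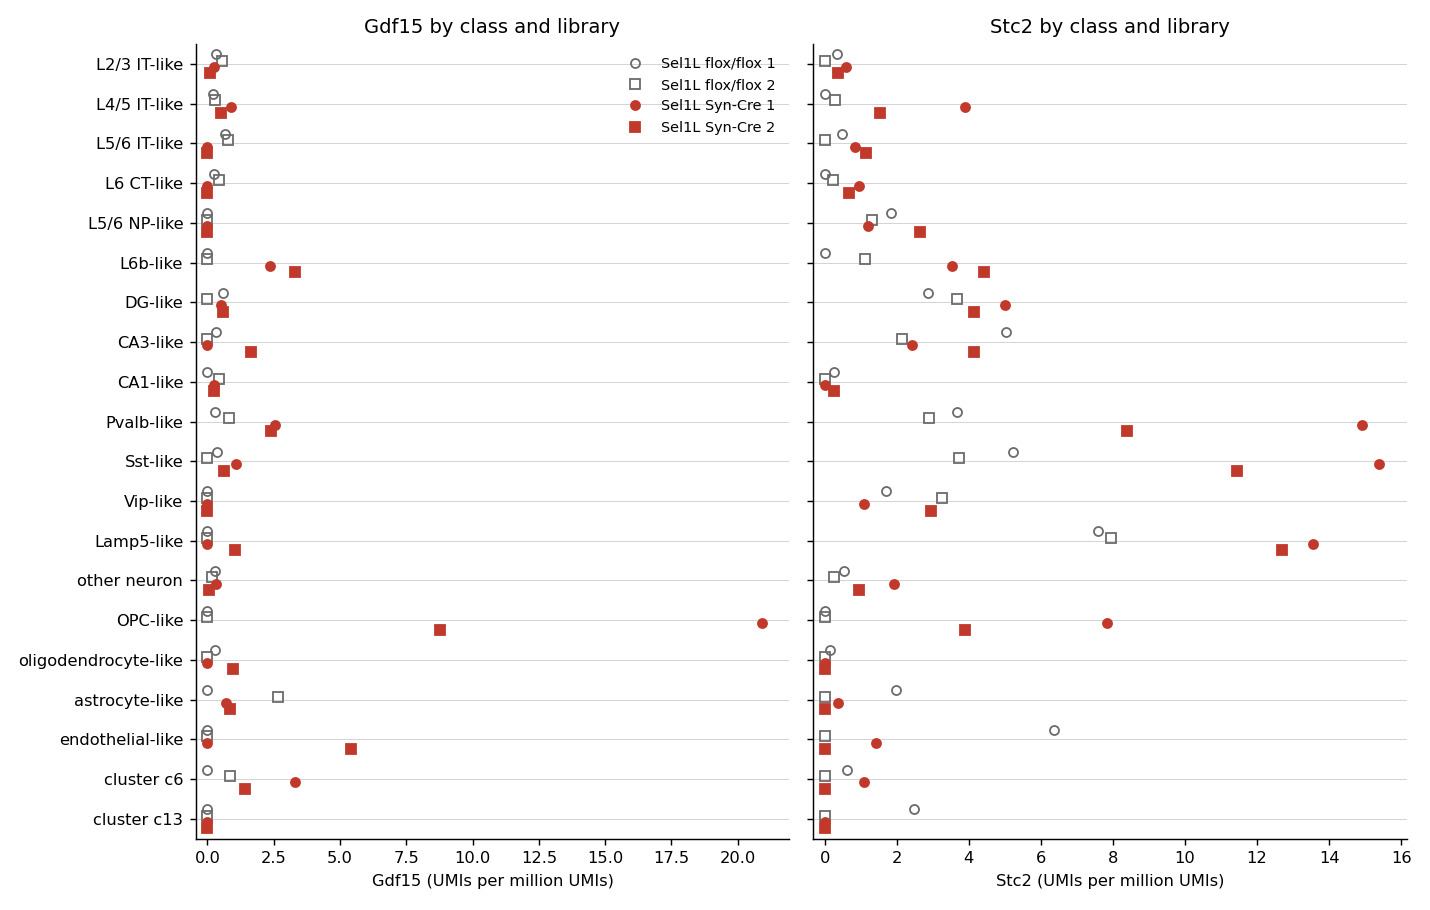
*Gdf15* and *Stc2* levels (CPM, linear axes that differ between the panels) in each class, 1 point per library, open for the *Sel1L* flox/flox label and filled red for *Sel1L* Syn-Cre. *Gdf15* stands out in OPC-like nuclei of the 2 libraries labelled *Sel1L* Syn-Cre (20.9 and 8.76 CPM), and *Stc2* is higher under that label in *Pvalb*-like and *Sst*-like neurons.

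*Fgf21*, the hormone with the same upstream element as *Nupr1*, was at the edge of detection. Its UMIs in all nuclei numbered 1, 0, 8 and 1. The 8 UMIs of the library labelled Syn-Cre replicate 1 lay in L4/5 IT-like neurons (4), CA3-like neurons (2) and other neurons (2), and the UMI of replicate 2 in L2/3 IT-like neurons. No OPC-like or oligodendrocyte-like nucleus held one, and 15 of the 20 classes held none. The summed ratio of 11.5 (95% exact interval 1.59 to 503, counting error only) rested on 1 library, and the gene could not be tested in any class.

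Of the 76 pairs of the 4 genes with the 19 classes other than OPC-like nuclei, 13 had enough counts to be tested, 6 for *Nupr1* and 7 for *Stc2*. A gene near 0 under 1 label enters the test only where it is high under the other. *Nupr1* in oligodendrocyte-like nuclei and *Stc2* in L4/5 IT-like neurons did so. *Stc2* in *Pvalb*-like, *Sst*-like and *Lamp5*-like neurons and in neurons of no named subtype also entered only through the Syn-Cre libraries. The number of calls among the tested pairs is therefore not read as a result.

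The other genes of the integrated stress response give the setting in which these rises stood. The list held 28 genes, among them *Atf4*, its partner *Ddit3*, the asparagine synthetase *Asns* and the cystine transporter *Slc7a11*. It was chosen with earlier results of these data known, so the counts of its genes are a description and not independent support. In *Sst*-like neurons 25 of 27 genes tested rose, with a median change of 1.81, and *Slc7a11* (4.93), the nutrient-stress gene *Fam129a* (4.39) and the pseudokinase gene *Trib3* (4.02) changed most. In *Pvalb*-like neurons 13 of 27 rose (median 1.33), led by *Cth* (5.15), an enzyme of cysteine synthesis. Among all genes tested 5% rose in *Sst*-like and 2.26% in *Pvalb*-like neurons, and the median change of all genes lay between −0.01 and 0.02 in every class.

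In oligodendrocyte-like nuclei 7 of 17 genes of the list rose, where 0.715% of all genes did, and the median was 0.92. They were *Slc7a1* (2.87), *Atf5* (2.41), *Ddit3* (2.06), *Asns* (1.89), *Mthfd2* (1.16), *Cebpg* (1.09) and *Sars* (0.92), which code for amino acid transport, transcription factors, amino acid and folate metabolism and tRNA charging. In OPC-like nuclei the 22 list genes with enough counts had a median fitted change of 1.94, given as a description.

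*Nupr1* was near its floor in other classes in which list genes rose. DG-like neurons had 12 of 22 list genes higher (median 1.34, against 2.15% of all genes), with *Nupr1* at 1, 1, 1 and 0 UMIs. L4/5 IT-like neurons had 12 of 26 higher (median 1.13, against 0.94%), with *Nupr1* at 3, 0, 7 and 5 UMIs, a ratio of 4.85 (95% exact interval 1.31 to 26.8, counting error only) at means of 0.158 ± 0.224 and 0.938 ± 0.424 CPM (SD, n = 2 each). *Stc2* also differed between these classes, with 36 and 33 UMIs in DG-like and 2 and 34 UMIs in L4/5 IT-like neurons under the flox/flox and Syn-Cre labels. Over all 19 classes the list gave 382 tested pairs of gene and class, of which 75 rose and 0 fell by edgeR, and 60 rose and 0 fell by DESeq2. At an unadjusted p under 0.05 in edgeR 187 were higher and 6 lower. Without the library labelled flox/flox replicate 1, the list genes tested had a median fitted change of 1.85 in *Sst*-like and 1.01 in *Pvalb*-like neurons. It was 0.77 in oligodendrocyte-like, 1.49 in DG-like and 1.21 in L4/5 IT-like nuclei, with the lone sample assumed to vary like the others.

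**Figure D4:**
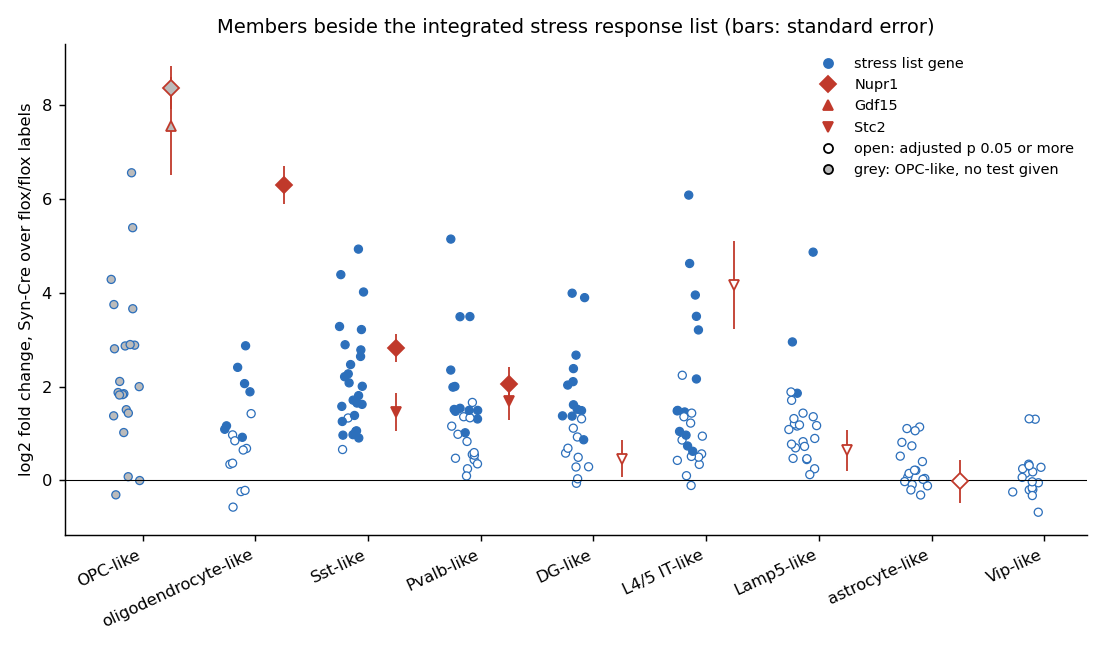
Fitted log2 fold change (Syn-Cre over flox/flox label) of the tested genes of the 28-gene list (small points) and, beside them, of *Nupr1*, *Gdf15* and *Stc2* (large symbols with SE) by class; filled symbols passed the adjusted p of 0.05, open ones did not, and OPC-like values are grey with no test. *Nupr1* is drawn at 8.38 and 6.30 in OPC-like and oligodendrocyte-like nuclei, where it was near 0 under the flox/flox label, and at 2.83 and 2.05 in *Sst*-like and *Pvalb*-like neurons, among the list genes.

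Other secreted stress factors rose in the same inhibitory neurons. Of the 14 in the list, which was also chosen with earlier results known, only 4 could be tested in *Sst*-like neurons. Genes low under the flox/flox label passed the count filter only where they were high under the other, so the counts are a description. All 4 rose, where 5% of all genes did. They were *Angptl6* (3.13), the ER-resident secreted protein gene *Creld2* (2.66), the trophic factor gene *Manf* (1.71) and the growth factor gene *Vegfa* (1.32). In *Pvalb*-like neurons 5 of 6 rose, these 4 and *Inhba*, a subunit of activin, where 2.26% of all genes did. *Lamp5*-like neurons had 2 of 5 higher, as were 47 of all 9894 genes, and L4/5 IT-like neurons 2 of 7, where 0.94% of all genes were. DG-like neurons had 3 of 7 higher, where 2.15% of all genes were. There 1 was lower, the activin antagonist *Fst* (−2.82), as were 240 of all 13058 genes. In oligodendrocyte-like nuclei *Manf* (1.26, adjusted p = 0.0501) and *Vegfa* (−0.63, adjusted p = 0.38) were tested, and neither passed in the main fit. *Manf* lay at the threshold. It did not pass with doublets kept (1.14, adjusted p = 0.17 by edgeR) or with a prior count of 2 (adjusted p = 0.0501). It passed under the other alternatives that kept all 4 libraries, such as DESeq2 (1.26, adjusted p = 0.0053). Without the library labelled flox/flox replicate 1, the genes tested numbered 5 in *Sst*-like, 6 in *Pvalb*-like, 8 in DG-like and 3 in oligodendrocyte-like nuclei. Their median fitted changes were 1.51, 1.71, 0.55 and 1.20 in that order. Fewer of these genes passed in *Pvalb*-like neurons than in the main fit, and the fall of *Fst* did not pass, whereas *Manf* passed in oligodendrocyte-like nuclei. These calls rest on a lone sample under the label.

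The 17 genes of receptors and partners gave 151 tested pairs of gene and class, of which 2 passed, 1 of 7 in *Sst*-like neurons (against 9.11% of all genes) and 1 of 9 in astrocyte-like nuclei (against 1.21%). *Igf1*, the insulin-like growth factor freed by PAPP-A, fell in *Sst*-like neurons (246, 121, 63 and 62 UMIs, −1.15, adjusted p = 3.9e-04 by edgeR), also without the library labelled flox/flox replicate 1 (−0.88, adjusted p = 0.045). *Kl*, which encodes klotho, rose in astrocyte-like nuclei (14, 1, 94 and 74 UMIs, 2.81, adjusted p = 0.025 by edgeR). Without the library labelled flox/flox replicate 1, which held 14 of its 15 flox/flox UMIs, the fitted change was 4.98. The rise of *Kl* did not pass in edgeR with the replicate number as a block (2.75, adjusted p = 0.16) or with doublets kept (1.58, adjusted p = 0.095). *Kl* is also a marker of choroid plexus. In the clusters made without integration, 178 choroid plexus epithelium-like nuclei stood apart, and *Kl* had too few counts to be tested in astrocyte-like nuclei. The part of choroid plexus nuclei in the integrated value was not tested. The GDF15 receptor gene *Gfral* was rare in every class, with 5, 0, 3 and 5 UMIs in *Lamp5*-like neurons. The FGF21 co-receptor gene *Klb* had 16, 11, 19 and 20 UMIs in L2/3 IT-like neurons (adjusted p = 0.54 by edgeR, where 0.223% of genes passed). The relatives *Nupr1l*, *Stc1*, *Fgf15* and *Fgf23* were read beside the 4 genes. *Stc1*, the paralogue of *Stc2*, had 31, 27, 14 and 13 UMIs in L2/3 IT-like neurons (adjusted p = 0.34 by edgeR).

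Within a class and library, nuclei with a *Nupr1* UMI had more RNA of the stress list than nuclei without. In OPC-like nuclei of the library labelled Syn-Cre replicate 1, the 28 genes summed to 2154 CPM in 95 nuclei with a *Nupr1* UMI and to 2001 CPM in 189 without. In replicate 2 they summed to 1476 CPM in 73 nuclei with and to 1249 CPM in 173 without. Oligodendrocyte-like nuclei had 1310 against 927 CPM and 1209 against 972 CPM in the libraries labelled Syn-Cre. The largest gap was in endothelial-like nuclei of the library labelled flox/flox replicate 1, at 4128 against 1567 CPM. That class also held fibroblast and pericyte markers, and its nuclei with a *Nupr1* UMI were deeper there (medians of 2645 against 1966 UMIs). The part of this mixture in the gap was not tested. Of 12 sets of a class and library with at least 20 such nuclei, all 12 had the higher sum in nuclei with a *Nupr1* UMI, by 1.04 to 2.63 times. Nuclei of a library are not replicates, and these sums are a description.

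The number of nuclei with a UMI of 2 of the genes ranged from below to above the number that independence would give. *Nupr1* and *Gdf15* were together in 7 OPC-like nuclei of the library labelled Syn-Cre replicate 1, where 8.03 would meet if they were independent, and in 4 of replicate 2, where 2.08 would. *Nupr1* and *Stc2* were together in 13 and 9 *Pvalb*-like nuclei under that label, against 12.2 and 3.36 if independent, and in 14 and 6 *Sst*-like nuclei, against 10.4 and 4.9. The 24 OPC-like nuclei with *Gdf15* had a stress list sum of 1890 CPM, below the 2071 CPM of those without.

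**Figure D5:**
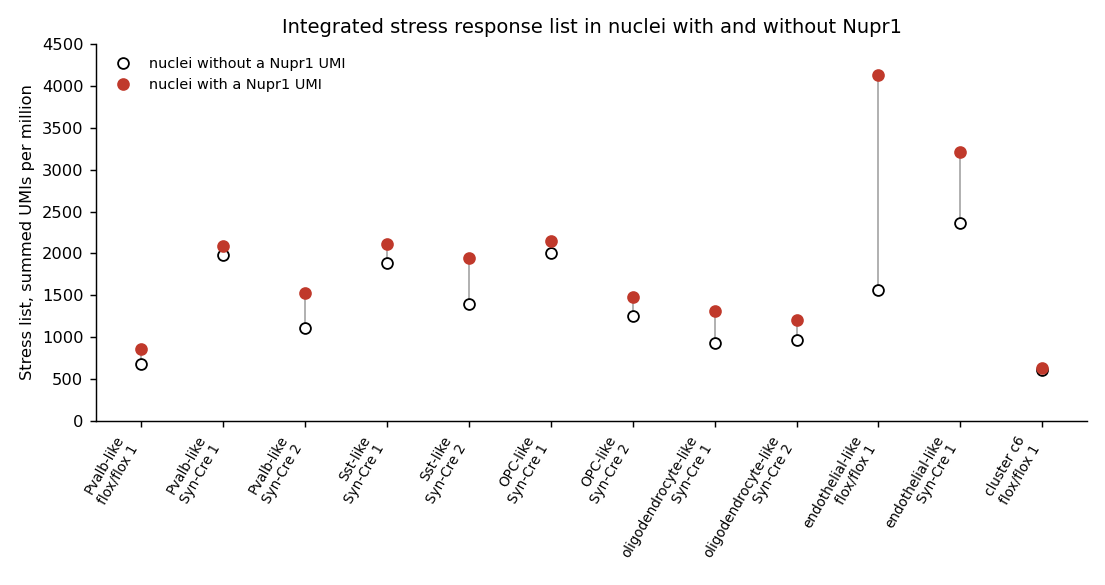
Summed CPM of the 28 integrated stress response genes in nuclei with (filled) and without (open) a *Nupr1* UMI, joined by a line for each class and library with at least 20 nuclei with a UMI. The filled point is the higher one in all 12 sets, by 1.04 to 2.63 times.

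Over the 68 pseudobulks of 17 named classes, the genes whose level followed *Nupr1* most closely (Spearman's rho of log2(CPM + 1)) were *CAAA01118383.1* (0.77), *Cox6a1* (0.77), *Adhfe1* (0.76), *Rnaset2a* (0.75) and *Ubr2* (0.75). For *Stc2* they were *Tspyl2* (0.75), *Gm26812* (0.73), *Asns* (0.72), *Snrpa* (0.71) and *Gars* (0.71), of which *Asns* is on the stress list and *Gars* encodes a tRNA synthetase. The closest gene to *Gdf15* was *Sox6os* at 0.52. The points share libraries, and depth differs between classes, so these correlations are descriptions.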

How the data were processed

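Nuclear RNA was counted in 4 libraries made with the 10x Genomics 3′ v3 chemistry. The authors processed the reads with Cell Ranger 6.1.0 on GRCm38, per the labels, and deposited raw UMI counts of 32286 features per nucleus, neither normalized nor filtered on doublets. Whether introns were counted is not given in the sources used here. The matrices held no columns of other samples (0).

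All further steps started from this table. Kept nuclei had over 600 genes; those with 600 or fewer (45 to 237 per library) or 5% or more mitochondrial UMIs (0 to 7) were left out, and Scrublet in scanpy 1.11.5 removed 445 to 1258 doublets per library at expected rates of 5.89% to 10.1%. Libraries were integrated in Seurat 5.3.0 (2000 features, 17 dimensions, resolution 0.2, neurons again at 0.4). Names needed 3 detected markers, and a cluster at or under 0.35 of the median depth of its libraries with none of its markers among the 10 leading genes stayed unnamed. Leiden clustering without integration (30 dimensions, 20 neighbours) was an alternative.

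UMIs were summed per library and class and tested with edgeR 4.0.16 (filterByExpr, TMM, two-sided quasi-likelihood test, prior count 0.125), with Benjamini-Hochberg adjustment over the genes of a class and a threshold of 0.05. With 2 libraries of 1 mouse each per label an exact permutation test cannot go below 0.333, so none was run. The SD and n refer to libraries. CPM in the text use the UMIs of the class in that library, and CPM differences carry no TMM factor. Intervals are 95% exact or Wilson intervals and cover counting error only, and the floor was 3 counts over the group. On simulated counts with a fold of 4, the fit recovered 157 of 178 changed genes tested in OPC-like and 163 of 176 in oligodendrocyte-like sums. It recovered 177 of 184 in *Pvalb*-like and 171 of 182 in *Sst*-like sums. Unchanged genes called numbered 8, 6, 7 and 4 in the same order. The simulation gave every gene the same dispersion and changed only genes with at least 20 counts. Recovery at the spread of the real libraries was not tested. Alternatives were DESeq2 1.42.0, no count filter, at least 10 counts in every library, a prior count of 2, over 200 genes per nucleus, doublets kept, no integration, a replicate block and each library left out.

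The 4 genes and the gene lists were chosen with earlier results of these data known. Named beyond the 4 were list genes past the threshold in a class, the 5 genes most like each of the 4 over class sums with at least 50 UMIs, and the 5 largest rises and falls in OPC-like nuclei with at least 20 counts. *Gfral*, *Klb*, *Stc1*, *Manf* and *Vegfa* of oligodendrocyte-like nuclei were named after their values were seen.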

Additional observations from a re-analysis of the deposited data

Results flagged for a closer look

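For 3 pairs of classes the change of *Nupr1* between the labels differed by a test of the difference itself, an interaction term in edgeR with the library as a block. The change in oligodendrocyte-like nuclei exceeded that in astrocyte-like nuclei by 6.20 on the log2 scale (adjusted p = 5.1e-04), and it lay between 5.95 and 6.47 with each library left out in turn. It exceeded the change in the unnamed cluster c6 by 7.10 (adjusted p = 3.8e-05), with 5.88 to 7.77 across the left-out libraries and 7.01 by DESeq2. Both pairs were chosen after the values were seen, and in oligodendrocyte-like nuclei *Nupr1* (4, 4, 55 and 87 UMIs) entered the test only through the libraries in which it was high. The change in *Sst*-like neurons exceeded that in *Vip*-like neurons by 2.79 (adjusted p = 0.0093), and that call was lost without either one of the libraries labelled *Sel1L* Syn-Cre, at 3.44 without replicate 1 and 2.52 without replicate 2, and held without flox/flox replicate 1 (3.36).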

How the results depend on the processing

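The *Nupr1* rise passed under all 13 alternatives in *Sst*-like (2.45 to 3.19) and *Pvalb*-like neurons (1.29 to 2.55). In oligodendrocyte-like nuclei it lay between 5.52 and 6.69 under the 12 alternatives that gave a value. The gene was near 0 there under the flox/flox label and was carried into the main test by the libraries in which it was high. Its passing under these 12 is therefore not read as support. The 5 calls among the 13 tested pairs, a count not read as support, became 2 with at least 10 counts in every library, a filter that leaves *Nupr1* in oligodendrocyte-like nuclei and *Stc2* in *Pvalb*-like and *Sst*-like neurons untested, and 3 to 6 with each library left out (3 without *Sel1L* flox/flox replicate 1 or *Sel1L* Syn-Cre replicate 1). The 75 list calls became 128 with no count filter. Calls among all genes then went from 1076 to 1234 in *Sst*-like, from 516 to 982 in *Pvalb*-like and from 5 to 0 in CA3-like neurons. *Stc2* in *Pvalb*-like neurons did not pass with DESeq2 (1.73) or with doublets kept (1.65), and lay between 1.24 and 2.06 with a library left out. In *Sst*-like neurons *Stc2* did not pass with DESeq2 (1.46) and lay between 1.20 and 1.79, passing only without *Sel1L* Syn-Cre replicate 2. In L4/5 IT-like neurons *Stc2* passed under 6 of 11 alternatives. In each of these neuron classes the Syn-Cre libraries alone carried *Stc2* into the main test, so its passes are not read as support. A lone library left under a label was assumed to vary like the others.

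The difference in the share of nuclei with a *Nupr1* UMI, at 2000 UMIs, at 4000 UMIs and unthinned, was 19.1, 25.7 and 31.5 percentage points in OPC-like, 9.16, 14.5 and 13.97 in oligodendrocyte-like, 4.04, 9.39 and 19.9 in *Pvalb*-like and 7.56, 15.5 and 29.7 in *Sst*-like nuclei. The OPC-like levels differed by 98.1 to 117 CPM for *Nupr1*, 8.76 to 20.9 for *Gdf15* and 3.89 to 7.84 for *Stc2* with a library left out. With *Vip*-like in place of CA1-like neurons as the reference, the *Nupr1* difference of *Sst*-like neurons was 2.79 and passed, with 2.36 to 3.44 across left-out libraries, and that of *Pvalb*-like neurons was 1.70 to 2.49. The DG-like reference, the pairs of glial classes and the left-out libraries of the *Vip*-like reference were chosen after seeing the data. DESeq2 gave no adjusted p for several sparse tests.

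Changes that were not called turned direction. *Nupr1* in astrocyte-like nuclei was 0.11 with doublets kept, 0.10 without integration and −0.46 to 0.30 with a library left out. *Nupr1* in endothelial-like nuclei was −0.034 with doublets kept and −0.45 to 1.19 with a library left out. *Stc2* in CA3-like neurons ranged from −0.71 to 0.055, and its differences against CA1-like neurons from −2.12 to 3.64 in DG-like, −0.23 to 4.77 in *Pvalb*-like and −0.25 to 4.24 in *Sst*-like neurons. The CA1-like reference held 2, 0, 0 and 1 *Stc2* UMIs. The cause of these turns was not tested.

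The labels do not say that equal replicate numbers mark a pairing, but the number goes with the sex of the mice read from *Xist* and *Ddx3y*, and samples with the same number correlated in their deviations over 0.1 in 18 of 21 class sums (−0.099 to 0.24). With the replicate number as a block, 6 pairs of gene and class and 104 of the list passed. Calls among all genes went from 208 to 684 in L4/5 IT-like and from 34 to 577 in L2/3 IT-like neurons. They went from 1076 to 1174 in *Sst*-like and from 516 to 612 in *Pvalb*-like neurons, and stayed at 5 in CA3-like neurons. The larger counts of pairs are therefore not read as a result. With the block, *Nupr1* rose by 6.20 in oligodendrocyte-like, 2.86 in *Sst*-like and 2.07 in *Pvalb*-like nuclei. *Stc2* in L4/5 IT-like neurons (4.23) and in all neurons (1.17, adjusted p = 0.022 by edgeR) and *Nupr1* in all neurons (2.03) also passed. In L4/5 IT-like neurons *Stc2* entered the test only through the Syn-Cre libraries.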
